A study of Mus musculus with 16 samples.

Results

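*Elovl1*, *Elovl5*, *Elovl6*, *Elovl7*, *Acsl1*, *Acsl3*, *Acsl4*, *Acsl5*, *Hacd2* and *Hacd3* are 10 genes for the synthesis of long-chain fatty acyl-CoA, of 55450 genes counted in CD4+ and CD8+ tumor-infiltrating lymphocytes (TILs). They were chosen by their expression in CD4+ TILs, where this pathway ranked first in *Sirt2*-/- libraries, so the difference between *Sirt2*-/- and wild-type (WT) CD4+ TILs was used to pick them and is described here without a test. All 10 genes had enough counts to be tested in each of the 3 comparisons. TILs came from subcutaneous tumors of B16F10, a transplanted mouse melanoma line, and RNA was sequenced as stranded total RNA libraries with ribosomal RNA depleted. Both genotypes bore the same tumor. The 4 groups of 4 libraries each were CD4+ TILs of *Sirt2*-/- mice (B6.129-Sirt2tm1.1Fwa/J, which lack the deacetylase SIRT2 in all cells), CD4+ TILs of WT C57BL/6J mice, CD8+ TILs of *Sirt2*-/- mice and CD8+ TILs of WT mice. The mice were 7 to 8 weeks old. The paper states that controls were matched for age and sex and that males and females were used. The sex behind each library is not given in the sources used here. TILs were purified on beads against CD3ε, and how CD4+ and CD8+ cells were then parted is not given in the sources used here.

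A fatty acid is activated before it is used: an acyl-CoA synthetase of the ACSL family joins it to coenzyme A. Elongation then adds carbon pairs in a cycle on the endoplasmic reticulum. An elongase (ELOVL) condenses the acyl-CoA with malonyl-CoA and sets which chain is extended, HSD17B12 reduces the product, a 3-hydroxyacyl-CoA dehydratase (HACD) removes water, and TECR carries out the last reduction. Activated T cells draw on these chains for membrane phospholipids, sphingolipids and signaling lipids, and the sterol-responsive factor SREBP1 is a known regulator of fatty acid synthesis and of *Elovl6*.

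The promoters of the members that differed between cell types or lay apart between genotypes are shown first, to let their sequence be read beside their levels. These are RefSeq windows on GRCm38.p6, from 250 bases before to 50 bases after a gene's start, all on the plus strand, and *Acsl1*, the only member with a sterol regulatory element, is given at its second start. Capitals mark matches, on either strand, to 5 motifs. The sterol regulatory element was searched as TCACNCCAC. The E-box of MYC and related factors was searched as CACGTG. The site of the factor NF-Y was searched as CCAAT, and the GC box of SP1 and its relatives was searched as GGGCGG. The motif of RUNX factors, which act in CD8+ lineage choice, was searched as TGTGGT. Matches that overlap or abut run together, as CCAAT and the GC box next to it in *Acsl3*. The windows lie at chr3:129532136-129532435 (*Elovl6*), chr13:108214154-108214453 (*Elovl7*), chr19:55253119-55253418 (*Acsl5*), chr1:78657575-78657874 (*Acsl3*) and chr8:46490716-46491015 (*Acsl1*).
Elovl6: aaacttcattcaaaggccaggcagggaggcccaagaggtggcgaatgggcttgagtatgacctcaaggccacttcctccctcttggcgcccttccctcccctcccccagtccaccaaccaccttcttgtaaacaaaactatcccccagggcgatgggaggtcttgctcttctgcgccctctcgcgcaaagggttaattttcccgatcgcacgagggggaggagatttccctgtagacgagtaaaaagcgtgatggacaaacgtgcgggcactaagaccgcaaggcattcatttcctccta
Elovl7: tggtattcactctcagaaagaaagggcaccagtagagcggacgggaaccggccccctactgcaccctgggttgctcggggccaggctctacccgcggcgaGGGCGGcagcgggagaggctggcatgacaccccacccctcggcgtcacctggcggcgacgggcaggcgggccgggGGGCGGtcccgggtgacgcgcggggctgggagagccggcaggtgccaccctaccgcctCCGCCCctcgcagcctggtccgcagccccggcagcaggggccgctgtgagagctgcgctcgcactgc
Acsl5: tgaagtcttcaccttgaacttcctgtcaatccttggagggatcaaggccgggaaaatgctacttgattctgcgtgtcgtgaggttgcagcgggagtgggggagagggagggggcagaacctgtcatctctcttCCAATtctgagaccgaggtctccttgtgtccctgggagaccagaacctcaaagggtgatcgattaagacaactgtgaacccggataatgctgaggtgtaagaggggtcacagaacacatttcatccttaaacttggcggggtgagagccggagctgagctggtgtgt
Acsl3: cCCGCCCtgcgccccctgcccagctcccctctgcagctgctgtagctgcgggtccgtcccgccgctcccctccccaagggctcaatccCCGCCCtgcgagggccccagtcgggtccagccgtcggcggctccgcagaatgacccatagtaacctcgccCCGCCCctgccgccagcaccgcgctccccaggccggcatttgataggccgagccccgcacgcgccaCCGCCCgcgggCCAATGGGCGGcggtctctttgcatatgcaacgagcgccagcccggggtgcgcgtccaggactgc
Acsl1: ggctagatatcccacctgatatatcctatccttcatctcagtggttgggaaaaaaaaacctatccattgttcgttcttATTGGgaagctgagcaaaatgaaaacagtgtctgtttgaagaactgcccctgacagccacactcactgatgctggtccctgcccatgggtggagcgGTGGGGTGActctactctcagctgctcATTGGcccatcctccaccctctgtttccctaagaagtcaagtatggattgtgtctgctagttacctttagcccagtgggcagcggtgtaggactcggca

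The windows of *Elovl6* and *Elovl7* differed in motif matches and in base composition, with 55.7% and 74.0% of bases G or C. A link of these letters to the levels was not tested. The *Elovl6* window held none of the 5 motifs, whereas the *Elovl7* window held 3 GC boxes, starting 150, 75 and 17 bases before the gene's start. The *Acsl5* window held 1 CCAAT match, 117 bases before the start, and no GC box. The *Acsl3* window held 5 GC boxes and a CCAAT match 15 bases before the start. *Acsl1* had a start with 7 GC boxes and a second start with the sterol regulatory element, 76 bases before it. Over the 12 windows of the 10 members, the sterol regulatory element was found in 1, against 1.24% of all 32851 windows. CACGTG was found in 2, those of *Elovl5* (161 bases before the start) and *Hacd3* (78 bases before the start), against 7.15%. GGGCGG was found in 8 of 12 against 35.7%, CCAAT in 6 of 12 against 37.4%, and TGTGGT in 1 of 12, that of *Elovl5*, against 16.8%. A match is a match of letters, and binding was not measured.

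Total counts per library ranged from 28000949 to 62407851. The labels fit the lineage genes: *Cd4* was at 384 to 620 CPM (counts scaled to a common library size) in CD4+ and at 0 to 4.93 CPM in CD8+ libraries, and *Cd8a* at 1003 to 1261 CPM in CD8+ and 0.0333 to 33.4 CPM in CD4+ libraries. In CD8+ TILs *Sirt2* had 322 to 448 counts in *Sirt2*-/- and 1196 to 1703 counts in WT libraries. Its log2 fold change was -2.22 (SE 0.21, adjusted p = 0.00663, edgeR). In 3 libraries fewer than 15000 genes were detected, namely *Sirt2*-/- CD4+ replicate 4 (8169 genes), WT CD4+ replicate 1 (12587 genes) and WT CD8+ replicate 1 (14411 genes), against 17730 to 22138 genes in the others. Results that rest on these libraries are given with and without them. The protocol gives 4 per group and does not say that each library was a separate mouse, so the p-values measure the spread between these libraries. In bulk RNA, fewer cells of a type and less RNA per cell cannot be told apart.

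**Figure D1:**
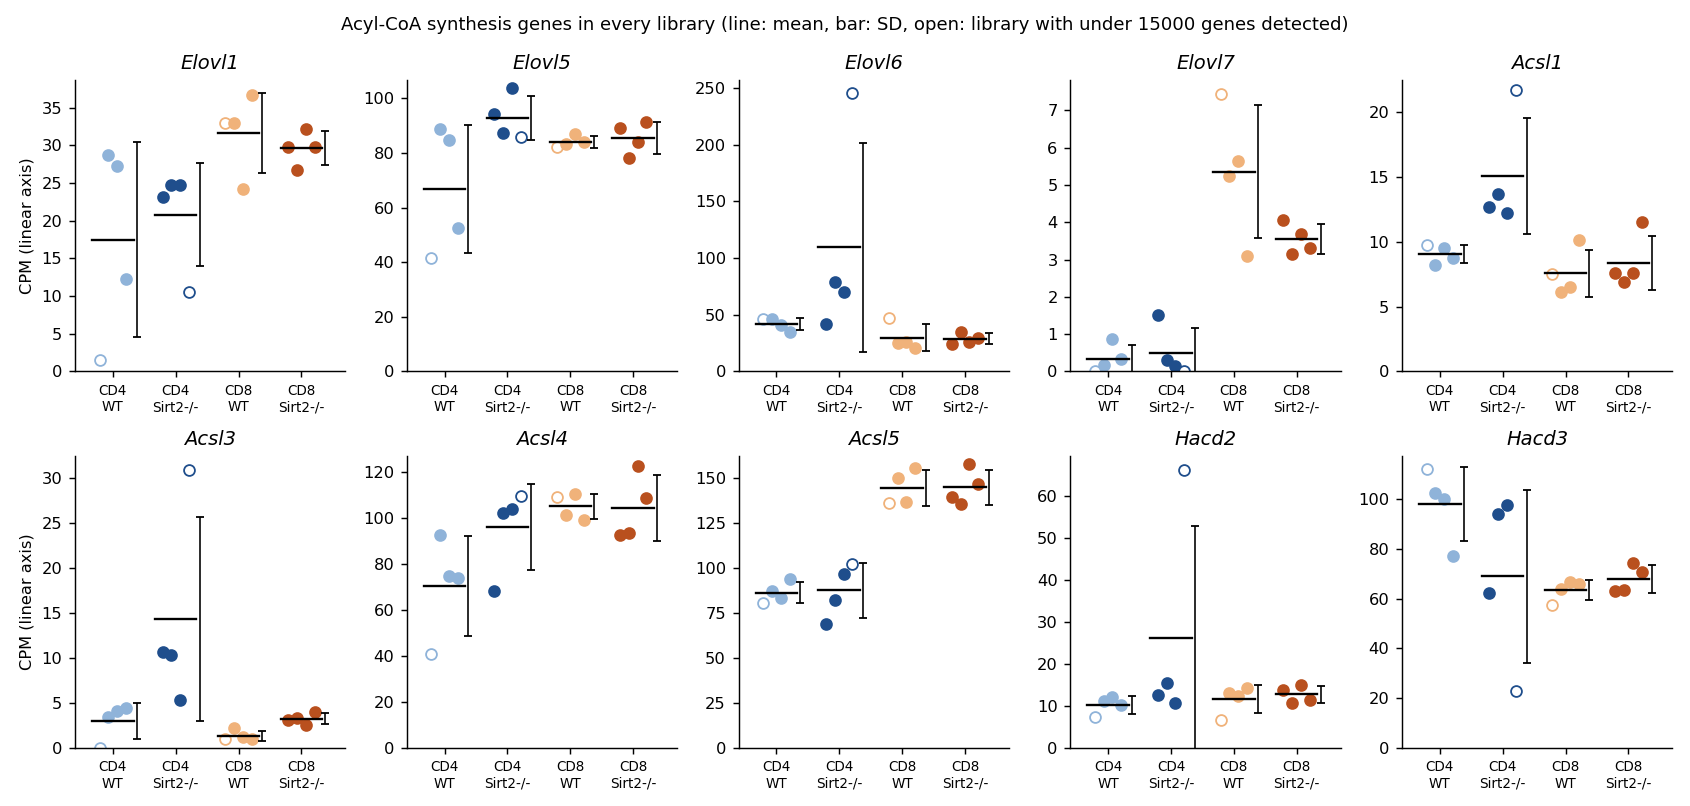
Level of each of the 10 genes in every library, in CPM on linear axes from 0, for the 4 groups; lines are means, bars are SD (n = 4) and open points are the 3 libraries with fewer than 15000 genes detected. *Acsl5* and *Elovl7* are higher in every CD8+ than in every CD4+ library, and *Sirt2*-/- CD4+ replicate 4 lies far above the others for *Elovl6* (246 CPM) and *Hacd2* (66.1 CPM).

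Per kilobase of exon, a few members carried most of the RNA of each of the Elovl, Acsl and Hacd families. *Elovl5*, which extends polyunsaturated chains, had the highest mean of the elongases, with 57.7% ± 4.4 (SD, n = 4) of the summed RPKM (CPM per kilobase of exon) of the 7 elongases in WT CD8+ TILs. It held 59.7% ± 1.7 in *Sirt2*-/- CD8+, 59.5% ± 0.77 in WT CD4+ and 53.2% ± 11.8 in *Sirt2*-/- CD4+ TILs, where *Elovl6* led in replicate 4 (57.5% against 36.7% for *Elovl5*). In CD8+ TILs the order of RPKM was *Elovl5*, *Elovl1*, *Elovl6*, *Elovl7*, and the ranges of neighbours did not overlap: 22.2 to 26.0 RPKM, 8.87 to 13.4 RPKM, 3.26 to 7.37 RPKM and 0.774 to 1.85 RPKM over the 8 libraries. In CD4+ TILs *Elovl1* (0.573 to 10.6 RPKM) and *Elovl6* (5.41 to 38.2 RPKM) overlapped in their ranges and could not be ordered. *Elovl3* had no counts in any library, and *Elovl2* and *Elovl4* reached at most 0.249 RPKM.

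Among the Acsl genes, *Acsl5* and *Acsl4* together made up most of the family. *Acsbg1*, a synthetase of another family, was at 47.0 ± 18.6 RPKM in WT and 31.2 ± 9.5 RPKM in *Sirt2*-/- CD4+ TILs and at 19.2 ± 0.63 RPKM and 18.3 ± 5.2 RPKM in CD8+ TILs (SD, n = 4), so its mean lay above that of *Acsl5* in CD4+ and below it in CD8+ TILs. In WT CD8+ TILs *Acsl5* held 58.8% ± 3.0 and *Acsl4* 38.5% ± 2.7 of the family's RPKM (SD, n = 4), and their ranges did not overlap (27.9 to 32.0 RPKM against 18.3 to 20.4 RPKM). In *Sirt2*-/- CD4+ TILs neither led in every library, with means of 44.7% ± 2.9 and 44.0% ± 3.7, with overlapping ranges of 14.1 to 21.045 RPKM and 12.6 to 20.2 RPKM. In WT CD4+ TILs *Acsl5* held 55.7% ± 7.5 and *Acsl4* 39.6% ± 7.1. *Acsl1* and *Acsl3* were minor, at 0.583 to 2.07 RPKM and 0 to 7.10 RPKM over all 16 libraries, with overlapping ranges.

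*Hacd3* had the highest mean of the dehydratases, with 87.9% ± 1.8 of the family in WT CD8+, 87.6% ± 1.5 in *Sirt2*-/- CD8+ and 92.9% ± 1.9 in WT CD4+ TILs (SD, n = 4). In *Sirt2*-/- CD4+ TILs the share was 75.1% ± 28.7 and ranged from 32.2% to 92.3%. The lowest share was that of replicate 4, with 17.6 RPKM of *Hacd2* and 8.36 RPKM of *Hacd3*, the only library in which *Hacd2* was above *Hacd3*. *Hacd1* and *Hacd4* reached at most 0.528 RPKM.

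**Figure D2:**
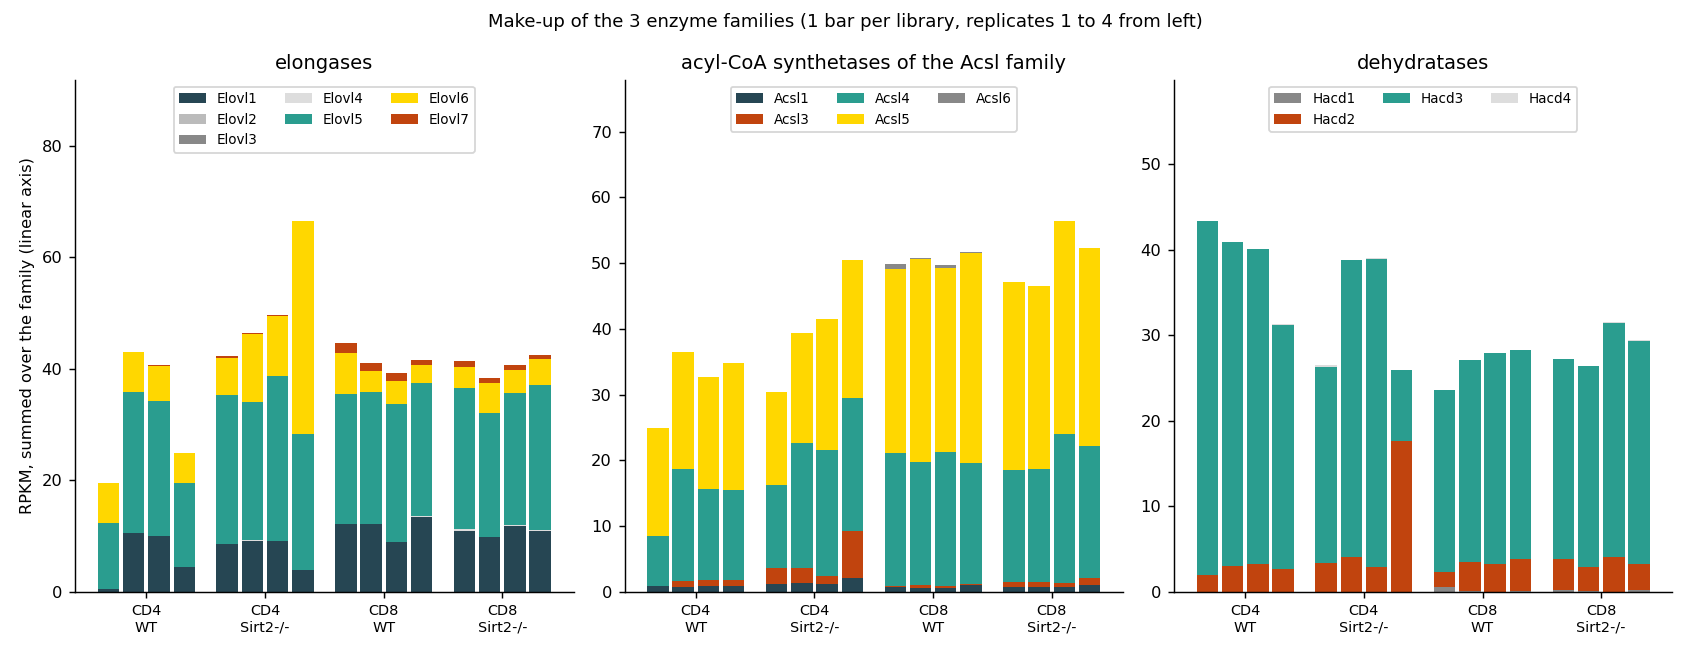
RPKM of each member, stacked, in the 7 elongases, 5 Acsl synthetases and 4 dehydratases, 1 bar per library on linear axes from 0. *Elovl5*, *Acsl5* with *Acsl4*, and *Hacd3* fill most of the bars, except that *Sirt2*-/- CD4+ replicate 4 differs by its *Elovl6* (38.2 RPKM) and *Hacd2* (17.6 RPKM).

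CD8+ and CD4+ TILs were then compared over both genotypes, to ask how the members differed between the cell types. *Acsl5*, which activates long-chain fatty acids, and *Elovl7*, an elongase of saturated and monounsaturated long chains, were higher in CD8+ TILs, and the fitted level of *Elovl6*, which extends palmitate to stearate, was lower. The fit put 3 of 10 members past an adjusted p of 0.05 (edgeR quasi-likelihood test, Benjamini-Hochberg over 17270 genes), 2 higher and 1 lower, against 11.3% of all genes called, 5.65% higher and 5.7% lower. Of the members 5 of 10 had a log2 fold change above 0, against 55.3% of all genes, and the members' median was -0.11 against 0.10 over all genes tested. This average over genotypes is balanced against the difference used to choose the genes, exactly so only where the groups have a like spread. The SD of CPM in *Sirt2*-/- CD4+ TILs was wider than in the other groups for *Elovl6*, *Acsl1*, *Acsl3*, *Acsl5*, *Hacd2* and *Hacd3*. Each genotype's own value is therefore given too. The value of *Elovl6* draws for the most part on the *Sirt2*-/- CD4+ libraries that served to choose the genes. It is thus a description and not an independent test, which leaves *Acsl5* and *Elovl7*. For *Acsl5* the balance is not exact. Its SD was 15.2 CPM in *Sirt2*-/- CD4+, 5.87 CPM in WT CD4+, 9.84 CPM in *Sirt2*-/- CD8+ and 9.88 CPM in WT CD8+ TILs. Its log2 fold change was 0.75 within WT and 0.73 within *Sirt2*-/- libraries. The 4 genes listed as markers of NK cells summed to 237 to 449 CPM in CD8+ and 15.7 to 53.6 CPM in CD4+ libraries. Most of each sum was *Eomes*, and *Ncr1* was not higher in CD8+ libraries. Of these, 2 of 4 were called higher in CD8+ TILs. *Eomes* was at 208 to 404 CPM in CD8+ and 12.0 to 37.3 CPM in CD4+ libraries, *Klre1* at 13.2 to 31.5 CPM and 0 to 7.86 CPM, *Klrb1c* at 2.30 to 11.4 CPM and 0 to 5.28 CPM, and *Ncr1* at 0 to 2.25 CPM and 0 to 3.28 CPM. Stromal markers, 7 genes, summed to 36.2 to 109 CPM in CD8+ and 64.5 to 182 CPM in CD4+ libraries, with 1 of 5 tested called lower. Up to 6 of the 7 were at 0 in a CD8+ library and up to 5 in a CD4+ library, so these sums can rest on few genes. Whether these sums stand for NK or stromal cells, and their part in the members' values, was not tested.

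*Acsl5* (chr19:55251938-55297720 on GRCm38, plus strand, 23 exon blocks) separated the cell types without overlap. CD8+ libraries were at 136, 150, 136 and 156 CPM in WT and at 139, 135, 158 and 147 CPM in *Sirt2*-/- mice. CD4+ libraries were at 80.3, 86.8, 83.1 and 93.9 CPM in WT and at 68.6, 82.0, 96.6 and 102 CPM in *Sirt2*-/- mice. The lowest CD8+ library thus lay above the highest CD4+ library in either genotype. The log2 fold change was 0.74 (SE 0.10, 95% interval 0.53 to 0.95), or 1.67-fold, with an adjusted p of 6.63e-05 (edgeR). It was 0.75 (SE 0.14) within WT and 0.73 (SE 0.14) within *Sirt2*-/- libraries, and 0.75 (SE 0.08) without the 3 libraries of few genes. *Acsl5* shares 404 exon bases, 8.31% of its exon length, with *Zdhhc6* on the opposite strand, a gene at 39.8 to 45.7 CPM in CD8+ and 7.90 to 41.8 CPM in CD4+ libraries. Whether the counting used strand is not given in the sources used here.

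*Elovl7* (chr13:108214404-108285683, plus strand, 8 exon blocks) had few or no counts in CD4+ TILs and was low but present in every CD8+ library. CD8+ libraries held 246, 198, 208 and 110 counts (7.44, 5.23, 5.65 and 3.10 CPM) in WT and 199, 128, 182 and 165 counts (4.05, 3.16, 3.69 and 3.32 CPM) in *Sirt2*-/- mice. CD4+ libraries held 0, 8, 39 and 12 counts in WT and 68, 13, 6 and 0 counts in *Sirt2*-/- mice, at most 1.501 CPM. No CD4+ library reached the lowest CD8+ library. The log2 fold change was 3.41 (SE 0.93, 95% interval 1.44 to 5.38, adjusted p = 0.0233, edgeR), and 2.86 (SE 0.50, adjusted p = 0.000168) without the libraries of few genes, 2 of which were the CD4+ libraries at 0. Leaving out single libraries gave adjusted p-values from 0.0027 to 0.0546 and lost the call in 4 of 16 cases, those of *Sirt2*-/- CD4+ replicates 2 and 3 (0.0534 and 0.0521) and WT CD4+ replicates 2 and 4 (0.0546 and 0.0544). The log2 fold change of *Elovl7* was 3.95 (SE 1.4) within WT and 2.87 (SE 1.3) within *Sirt2*-/- libraries. *Elovl7* and *Acsl5* were the 2 members without overlap between the cell types, both above, against 4.96% of all genes.

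*Elovl6* (chr3:129532355-129638495, plus strand, 6 exon blocks) had a lower mean in CD8+ TILs in both genotypes. CD8+ libraries were at 47.4, 24.6, 25.9 and 20.995 CPM in WT and at 24.6, 34.9, 25.9 and 29.9 CPM in *Sirt2*-/- mice. CD4+ libraries were at 46.0, 46.4, 40.8 and 34.8 CPM in WT and at 42.1, 79.1, 70.2 and 246 CPM in *Sirt2*-/- mice. The groups overlapped through WT CD8+ replicate 1, a library of few genes, and the highest of the other CD8+ libraries (34.9 CPM) lay beside the lowest CD4+ library (34.8 CPM). The log2 fold change of -1.21 had an SE of 0.29, and was -0.99 (SE 0.13) without the libraries of few genes. It was -0.50 (SE 0.41) within WT and -1.92 (SE 0.42) within *Sirt2*-/- libraries, and whether these differ was not tested. The share of *Elovl6* in the elongases was 11.0% ± 3.8 in WT and 11.1% ± 2.2 in *Sirt2*-/- CD8+ TILs, against 22.7% ± 9.7 in WT and 30.4% ± 18.6 in *Sirt2*-/- CD4+ TILs (SD, n = 4).

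The other 7 members did not pass the threshold. *Acsl3*, a synthetase of the endoplasmic reticulum and lipid droplets, had the widest difference among them, with a log2 fold change of -1.65 (SE 0.73, 95% interval -3.19 to -0.12, adjusted p = 0.182, edgeR). It was -1.16 (SE 1.02) within WT and -2.14 (SE 1.04) within *Sirt2*-/- libraries. Without the libraries of few genes it was -1.48 (SE 0.26) and passed the threshold, and *Acsl1* (log2 fold change -0.45, SE 0.17, adjusted p = 0.0455) and *Hacd3* (-0.44, SE 0.10, adjusted p = 0.00212) passed as well, making 6 of 10 members, where 37.7% of all genes were called in that setting. *Acsl3* also passed without WT CD4+ replicate 1 alone (adjusted p = 0.0166), and *Hacd3* without *Sirt2*-/- CD4+ replicate 4 alone (adjusted p = 0.00276). *Acsl4*, which prefers arachidonate and other polyunsaturated chains, had a log2 fold change of 0.35 (SE 0.15, adjusted p = 0.173). *Elovl1*, an elongase of very long saturated chains, had 0.68 (SE 0.41, adjusted p = 0.372), and *Elovl5* had 0.11 (SE 0.14, adjusted p = 0.767). *Hacd2* had -0.43 (SE 0.42), which was 0.08 (SE 0.14) without the libraries of few genes. Within WT and within *Sirt2*-/- libraries, *Elovl1* had 0.86 and 0.51, *Elovl5* 0.33 and -0.12, and *Acsl4* 0.58 and 0.12. In the same order, *Acsl1* had -0.26 and -0.85, *Hacd2* 0.19 and -1.04, and *Hacd3* -0.63 and -0.02. Whether the genotypes differ in these values was not tested.

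**Figure D3:**
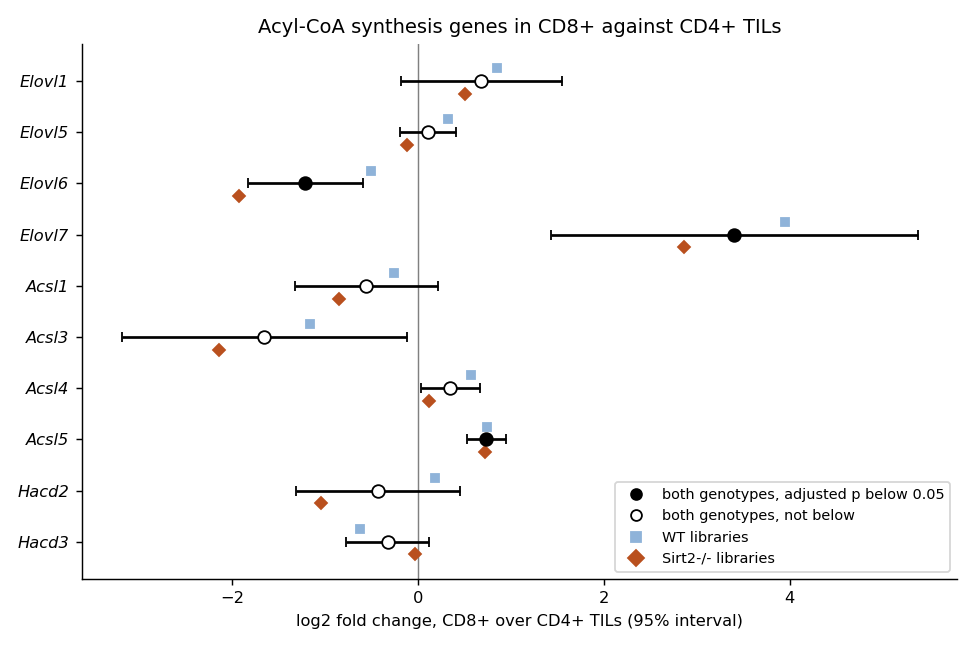
Log2 fold change of CD8+ over CD4+ TILs for each member, averaged over genotypes with its 95% interval (circles, filled at an adjusted p below 0.05), and within WT (squares) and *Sirt2*-/- libraries (diamonds). *Acsl5* has nearly the same value in both genotypes (0.75 and 0.73), *Elovl7* is the highest at 3.41, and *Elovl6* is the lowest of the filled points at -1.21, a value that is not independent of the choice of genes.

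The effect of SIRT2 loss was tested in CD8+ TILs, whose libraries took no part in choosing the genes. Of the 10 members, 0 passed the threshold (edgeR quasi-likelihood test over 15302 genes), nor did any with DESeq2 or limma-voom, against 1 gene called in all, *Sirt2* itself, or 0.00654%. The members' log2 fold changes had a median of 0.01, as had all genes, and 6 of 10 were above 0, against 51.9% of all genes. *Acsl3* was the 1 member with an unadjusted p below 0.05 in either direction, against 579 of 15302 genes. Genes with such a p that were higher made up 2.18%. It was also the 1 member above WT without overlap, against 1.66% of all genes.

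*Acsl3* (chr1:78657825-78707743, plus strand, 17 exon blocks) was at 3.13, 3.33, 2.49 and 4.03 CPM in *Sirt2*-/- CD8+ TILs, from 154, 135, 123 and 200 counts. In WT CD8+ TILs it was at 0.998, 2.19, 1.20 and 0.931 CPM, from 33, 83, 44 and 33 counts. The lowest *Sirt2*-/- library (2.49 CPM) lay just above the highest WT library (2.19 CPM). The log2 fold change of 1.29 (SE 0.46, 95% interval 0.28 to 2.29) had an adjusted p of 0.986 (edgeR) and was 1.18 (SE 0.39) without WT replicate 1. *Acsl3* shares 244 exon bases on the same strand with *Utp14b*, a gene with 154 to 285 counts in *Sirt2*-/- and 1 to 127 counts in WT CD8+ libraries. Markers of myeloid cells also had a higher mean sum in *Sirt2*-/- CD8+ TILs (18.2 against 6.31 CPM), although the ranges overlapped. Their summed level over 10 genes was 9.02 to 37.9 CPM in *Sirt2*-/- libraries, where none of the 10 was at 0, and 2.24 to 9.07 CPM in WT libraries, where up to 8 were at 0, although 0 of the 7 tested were called by edgeR (3 with an unadjusted p below 0.05), DESeq2 or limma-voom. The WT library with 8 myeloid markers at 0 was replicate 1, a library of few genes. Stromal markers, summed over 7 genes, were at 40.6 to 109 CPM against 36.2 to 48.3 CPM, with 0 to 3 genes at 0 against 2 to 6. The part of these cells and of *Utp14b* in the *Acsl3* values was not tested.

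The abundant members were measured closely in CD8+ TILs. *Acsl5* had a log2 fold change of 0.003 with a 95% interval of -0.20 to 0.20, *Acsl4* had -0.01 (-0.26 to 0.24), *Elovl5* had 0.03 (-0.17 to 0.22), *Hacd3* had 0.10 (-0.12 to 0.32) and *Elovl1* had -0.10 (-0.42 to 0.23). The intervals of *Elovl6* (-0.05, -0.59 to 0.49), *Acsl1* (0.15, -0.42 to 0.72) and *Hacd2* (0.14, -0.40 to 0.68) were wider. *Elovl7* had -0.59 (SE 0.33, -1.33 to 0.14), with WT libraries at 3.10 to 7.44 CPM and *Sirt2*-/- libraries at 3.16 to 4.05 CPM.

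In CD4+ TILs, whose difference chose the genes, 9 of 10 members had a higher fitted level in *Sirt2*-/- libraries, against 42% of all genes, with *Hacd3* as the exception. This count depends on the libraries and the setting: *Elovl7* had -1.21 without *Sirt2*-/- replicate 1 and -0.40 with limma-voom, *Elovl1* had -0.14 without WT replicate 1, and *Acsl5*, near 0, had -0.09 without the libraries of few genes. The members' median log2 fold change was 0.48, where the median over all genes tested was -0.11. The largest values were those of *Acsl3* (2.24, SE 1.46), *Elovl6* (1.37, SE 0.47) and *Hacd2* (1.35, SE 0.79). *Acsl1* had 0.74 (SE 0.79), *Elovl7* 0.50 (SE 1.80), *Elovl5* 0.47 (SE 0.28), *Acsl4* 0.45 (SE 0.28), *Elovl1* 0.25 (SE 0.85), *Acsl5* 0.02 (SE 0.19) and *Hacd3* -0.49 (SE 0.39).

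Several of these values leaned on few libraries. *Acsl3* was at 10.6, 10.4, 5.31 and 30.9 CPM in *Sirt2*-/- and at 0, 3.40, 4.10 and 4.41 CPM in WT CD4+ TILs, and without the libraries of few genes its log2 fold change was 1.15. *Acsl1*, at 12.7, 13.7, 12.2 and 21.7 CPM against 9.71, 8.18, 9.52 and 8.74 CPM, had 0.55 without them. *Acsl3* and *Acsl1* were the 2 members with every *Sirt2*-/- above every WT CD4+ library, against 1.31% of all genes. *Elovl6* went from 1.37 to 0.65, since replicate 4 at 246 CPM was over 3 times the next library, at 79.1 CPM.

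*Hacd2* showed the pattern of 1 library most plainly. It was at 12.6, 15.3, 10.7 and 66.1 CPM in *Sirt2*-/- and at 7.25, 11.1, 12.0 and 10.2 CPM in WT CD4+ TILs, and its log2 fold change was 0.22 without the libraries of few genes. *Hacd3* was at 62.2, 93.9, 97.7 and 22.7 CPM against 112, 103, 100.0 and 77.3 CPM, and went from -0.49 to -0.14. *Elovl5* was at 94.4, 87.3, 104 and 85.9 CPM against 41.4, 88.7, 84.9 and 52.6 CPM, with 0.34 without these libraries. *Elovl1* was at 23.2, 24.7, 24.7 and 10.6 CPM against 1.56, 28.8, 27.2 and 12.3 CPM, with 0.09. The median over the members was 0.28 without the libraries of few genes, where the median over all genes was near 0.

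*Acsl4*, on the X chromosome, was at 68.2, 102, 104 and 109 CPM in *Sirt2*-/- and at 40.6, 92.5, 74.5 and 73.5 CPM in WT CD4+ TILs, and at 92.3 to 123 CPM against 99.1 to 110 CPM in CD8+ TILs. WT replicate 2 of both cell types stood apart in *Xist*, the RNA of the inactive X chromosome. Its level was 67.4 CPM in the CD4+ and 61.7 CPM in the CD8+ library, against at least 443 CPM elsewhere. No *Sirt2*-/- library was this low, so the genotype groups were not alike in *Xist*, and a match in sex is not shown for these libraries. The part of this in the *Acsl4* values was not tested. *Acsl5* overlapped between the CD4+ groups, at 68.6 to 102 CPM against 80.3 to 93.9 CPM.

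**Figure D4:**
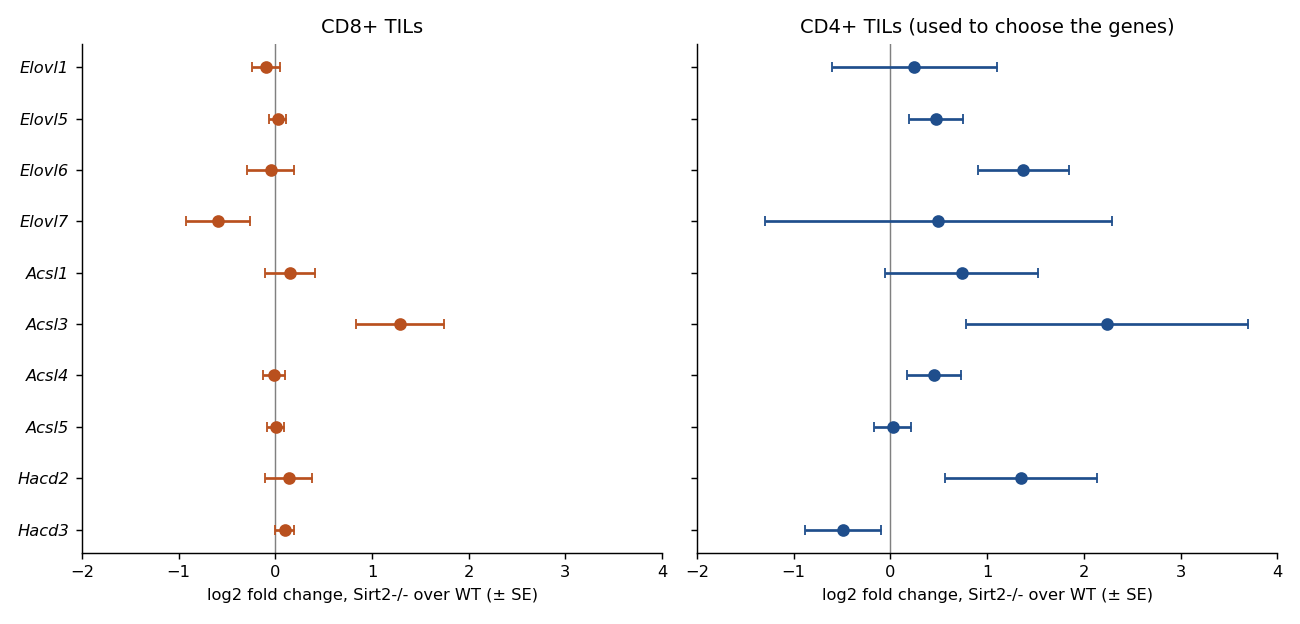
Log2 fold change of *Sirt2*-/- over WT (points, with SE as bars) for each member in CD8+ TILs, which were tested, and in CD4+ TILs, whose difference was used to choose the genes and is shown as a description. In CD8+ TILs *Acsl3* (1.29) and *Elovl7* (-0.59) lie farthest from 0, and neither passed the threshold.

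The 100 other genes of fatty acid activation, elongation, synthesis and use were read beside the members. In CD8+ TILs 85 of them were tested between genotypes, 0 were called by edgeR (5 with an unadjusted p below 0.05), 1 by DESeq2 and 0 by limma-voom, and their median log2 fold change was 0.04. Between the cell types 87 were tested, and 7 were higher and 4 lower in CD8+ TILs, a share near the 11.3% of all genes called. Their median log2 fold change was 0.28 against 0.10 over all genes. These calls depended on the libraries and the setting. Without the libraries of few genes 49 were called, where 37.7% of all genes were called. Without *Sirt2*-/- CD4+ replicate 4 alone 31 were called, where 4534 genes were called in all. With limma-voom 51 were called, where 7564 of 17270 genes were called. The lists below are given for edgeR with all 16 libraries. In CD4+ TILs 36 of 82 were higher in *Sirt2*-/- libraries, a share near the 42% of all genes. Their median log2 fold change was -0.18, where the median over all genes tested was -0.11.

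Of the genes for de novo synthesis of palmitate, the step before elongation, 4 of 7 had a log2 fold change above 0, against 55.3% of all genes. The 2 that were called were higher in CD8+ TILs, where 5.65% of all genes were called higher. *Acaca*, which makes malonyl-CoA, had a log2 fold change of 1.40 (SE 0.19, adjusted p = 6.66e-05), and *Fasn*, the fatty acid synthase, 1.03 (SE 0.15, adjusted p = 0.000108). *Acaca* was at 65.8 to 86.5 CPM in CD8+ and 17.0 to 44.1 CPM in CD4+ libraries, without overlap, and these were the 2 called of 7 genes on the list. Within the elongation cycle, *Hsd17b12* rose by 0.97 (SE 0.29, adjusted p = 0.0385), the 1 called of 4 tested, against 11.3% of all genes. It was at 51.1 to 73.5 CPM in CD8+ and 4.91 to 46.0 CPM in CD4+ libraries, the lowest being *Sirt2*-/- replicate 4. *Tecr*, the last enzyme of the cycle, was at 39.3 to 54.3 CPM in CD8+ and 30.0 to 56.8 CPM in CD4+ libraries and was not called.

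Genes that use acyl-CoA in glycerolipids were called lower in CD8+ TILs at 3 of 19 and higher at 0 of 19, although the median of the list was 0.33. Over all genes, 5.7% were called lower and 5.65% higher. *Dgat1*, which makes triacylglycerol, fell by 2.46 on the log2 scale (SE 0.21, adjusted p = 6.30e-07), from 43.5 to 94.8 CPM in CD4+ to 7.34 to 18.0 CPM in CD8+ libraries. *Lpcat1*, of phosphatidylcholine remodeling, fell by 1.43 (SE 0.24, adjusted p = 0.000554), and *Gpat4*, of the first acylation of glycerol-3-phosphate, by 0.65 (SE 0.16, adjusted p = 0.0112).

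The other synthetases moved both ways. *Acsbg1*, an acyl-CoA synthetase of the bubblegum family, fell by 1.03 in CD8+ TILs (SE 0.19, adjusted p = 0.00152), from 70.7 to 267 CPM in CD4+ to 41.8 to 87.2 CPM in CD8+ libraries. *Acsl6* was called higher (adjusted p = 0.00645) from very few counts, with 0 in 7 CD4+ libraries, 22 in *Sirt2*-/- CD4+ replicate 3 and 17 to 255 in CD8+ libraries. Of 16 genes of cholesterol synthesis and uptake, 14 had a log2 fold change above 0, against 55.3% of all genes. Of the 16, 2 were called, a share near the 11.3% of all genes. They were *Cyp51* (1.02, SE 0.20, adjusted p = 0.00259) and *Msmo1* (0.59, SE 0.18, adjusted p = 0.0435). *Acot7*, a thioesterase that releases fatty acids from acyl-CoA, was higher by 0.78 (SE 0.19, adjusted p = 0.0128). It was the 1 called of 9 tested, also near the 11.3% of all genes. No gene was called among 5 desaturases, 9 SREBP and LXR regulators, 6 genes of acyl-CoA and fatty acid binding and 6 of ceramide synthesis tested, where *Scd* and *Fads* genes make the double bonds that elongases extend from. All p-values here are from edgeR, adjusted over all genes.

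**Figure D5:**
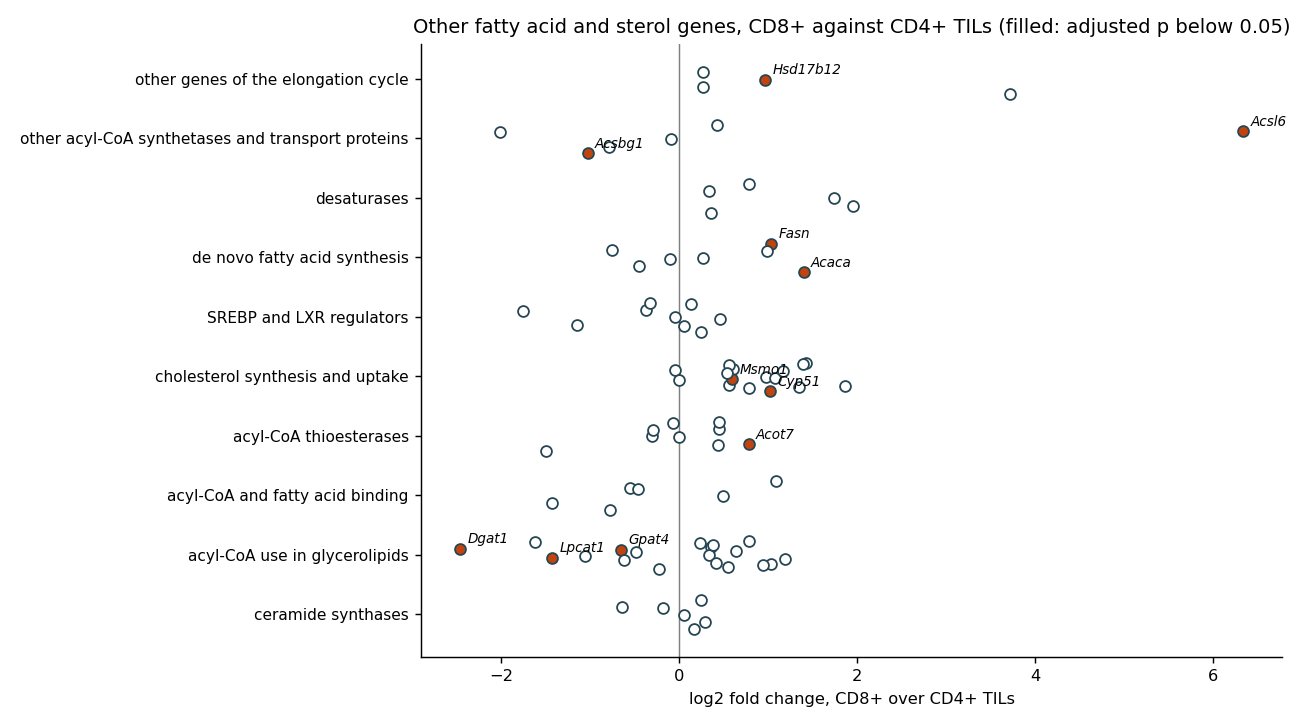
Log2 fold change of CD8+ over CD4+ TILs for the 87 tested genes of 10 lists, 1 point per gene, filled and named where the adjusted p was below 0.05. *Acaca* (1.40), *Fasn* (1.03) and *Hsd17b12* (0.97) lie to the right and *Dgat1* (-2.46), *Lpcat1* (-1.43) and *Acsbg1* (-1.03) to the left. The point of *Acsl6* rests on CD4+ libraries at or near 0, so its place on the axis depends on the count added before taking logs.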

How the data were processed

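CD4+ and CD8+ TILs from B16F10 tumors of WT and *Sirt2*-/- mice were profiled by stranded total RNA sequencing (Takara SMARTer Stranded Total RNA-seq v2 Pico). The authors deposited whole-number counts per gene, without normalization, and the submitters' processing notes name STAR, HTSeq and mm10 without versions. All 55450 gene identifiers were those of GENCODE mouse release M21 (GRCm38), from which exon lengths were taken. The members and gene lists were chosen with earlier results of these data known.

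CPM were computed with TMM library sizes over all 16 libraries (total counts 28000949 to 62407851), and RPKM per kilobase of merged exons. *Sirt2*-/- against WT within CD8+ TILs, and CD8+ against CD4+ TILs averaged over genotypes, were fitted with edgeR 4.0.16 (R 4.3.3; robust quasi-likelihood test, TMM, filterByExpr, Benjamini-Hochberg over all genes, adjusted p below 0.05). The fit of CD4+ TILs gave fold changes with SE only. In edgeR fits the SE was the size of the log2 fold change divided by the square root of the test's F statistic. The 95% intervals were built from this SE. Log2 CPM used a prior count of 2, and scripts were tested on simulated data. Named genes were the 10 members, *Sirt2*, and called list genes, up to 3 per list and direction. *Tecr*, *Utp14b*, *Zdhhc6*, *Xist* and unexpressed family members were named after their values were seen. Motifs were searched in RefSeq promoter windows.

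Alternatives were DESeq2 1.42.0, limma-voom 3.58.1 with quality weights, DESeq2 size factors, upper-quartile scaling, no filter, at least 10 counts in every library, 1 model of 16 libraries, a replicate block, and leaving out each library or the 3 with fewer than 15000 genes. Replicates were no duplicates. No library was left out of the fits.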

Additional observations from a re-analysis of the deposited data

Results flagged for a closer look

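In 4 of 40 groups of 4 libraries (10 members in 4 groups), 1 library lay apart from the other 3 by more than Dixon's 95% limit, where chance flags about 2 of 40. In *Sirt2*-/- CD4+ TILs, replicate 4, the library with 8169 genes detected, had 66.1 CPM of *Hacd2* against 10.7 to 15.3 CPM in the others, and 21.7 CPM of *Acsl1* against 12.2 to 13.7 CPM. The same library had 10.6 CPM of *Elovl1* against 23.2 to 24.7 CPM. In *Sirt2*-/- CD8+ TILs, replicate 4 had 11.5 CPM of *Acsl1* against 6.91 to 7.58 CPM. This CD8+ library had the most genes detected, 22138.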

How the results depend on the processing

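No member was called between genotypes in CD8+ TILs under any of the 9 other settings or with any library left out. Genes called in all there were 28 with DESeq2, 4 with limma-voom, 5 without a filter, 4 with the replicate block, 7 without the libraries with fewer than 15000 genes, and 0 to 7 with single libraries left out, 7 without WT replicate 1. Between CD8+ and CD4+ TILs, 3094 genes were called with DESeq2, 7564 with limma-voom, 6776 without the libraries of few genes, and 1510 to 4534 with single libraries left out, 4534 without *Sirt2*-/- CD4+ replicate 4. Members called there were 5, 7 and 6 under the first 3 of these and 2 to 4 with single libraries left out. *Acsl5* was called under all 8 settings and 16 omissions, as was *Elovl6*, whose call is not independent of the choice of genes. In CD4+ TILs, genes called were 7 with DESeq2, 4 with limma-voom, 6 without the libraries of few genes, and 0 otherwise. The cause of these changes was not tested.

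Replicate numbers were not used as pairs: correlations of same-numbered libraries ranged from -0.0821 to 0.128 and were not all above 0.1 for any pair of groups. For WT CD4+ and CD8+ TILs they were all positive (0.0684 to 0.1), and replicate 2 of both had low *Xist*, so a shared origin of these libraries was not settled. With the replicate block 1443 genes and 2 members were called between the cell types, and *Elovl7* had an adjusted p of 0.071. Fold changes near 0 turned sign in CD8+ TILs: *Elovl6* to 0.26 (limma-voom), 0.021 (block) and 0.28 (without few-gene libraries; -0.17 to 0.28 over omissions), *Acsl4* to 0.026 and 0.016 (-0.086 to 0.054), *Acsl5* to -0.041 and -0.020 (-0.030 to 0.046), and *Hacd2* to -0.050 and -0.046 (-0.046 to 0.26) with limma-voom and without those libraries. Over omissions, *Elovl5* ranged from -0.012 to 0.075 and *Acsl1* from -0.044 to 0.33. Between the cell types *Elovl5* turned to -0.020 and -0.023 and *Hacd2* to 0.079 and 0.081 (-0.56 to 0.064 over omissions). Low counts limit *Elovl7* and *Acsl3*, which have no value between the cell types or in CD4+ TILs with at least 10 counts in every library.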
